A study of Mus musculus with 32 samples.

Results

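The Csf1 receptor axis was followed here as 6 genes of 42524 in the table of counts: the ligands Csf1 and Il34, their receptor Csf1r, and the receptor chains Csf2ra, Csf2rb and Csf3r of the other colony-stimulating factors. The rule took the genes by name, and all 6 passed the filter on low counts at both times. RNA came from the spinal cord of 32 mice in 8 groups of 4, wildtype (WT) or G93A, untreated or given OKN007, labelled 90 or 155 days. G93A mice carry a human SOD1 transgene with the G93A mutation on the C57BL/6J background, a model of amyotrophic lateral sclerosis in which the human SOD1 promoter drives the transgene widely, and the WT mice were littermates. OKN007 is a nitrone given in drinking water. The study's cohorts killed at these times received the higher of its doses, for which it names female mice only, but the cohort that gave the RNA is not named in the sources used here. Treatment in these cohorts began before disease onset, except in a cohort killed at 155 days and treated only from 95 days of age. When treatment of the sequenced OKN007 mice of 155 days began is therefore not known. The study's text puts the earlier time at 95 days of age, whereas the series text reads 90 and 155 days as lengths of treatment, so that the times here are those of the labels. The labels name no batch, so collection and time cannot be told apart, and nothing says which animals shared a litter or a day.

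CSF-1 and IL-34 bind the same receptor, the tyrosine kinase CSF1R, on cells of the macrophage lineage, and in the central nervous system microglia depend on that receptor to survive and divide. In the brain, IL-34 is known mainly as a neuronal ligand, while CSF-1 is made by several cell types. CSF2RA binds GM-CSF and signals only together with CSF2RB, the common beta chain that is also used by the receptors of IL-3 and IL-5, and CSF3R is the receptor of G-CSF, best known from neutrophils and their precursors.

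Promoters of 3 of the 6 genes (Csf1, Csf2ra and Csf3r), and of Csf2rb2, a close relative of Csf2rb, were taken from the RefSeq table of GRCm38.p6. The promoter of Csf1r was left out of the selection, and Il34 and Csf2rb had no entry used here, so nothing is said of the letters in these 3. The genes of the 4 promoters were higher in G93A mice of 155 days, but so were Csf1r and Csf2rb. The rise is therefore not what chose these 4, and a link between it and the letters was not tested. PU.1 is a transcription factor that acts on many myeloid receptor genes. The capitals mark GAGGAA, the core letters of a PU.1 site, or TTCCTC where it lies on the opposite strand.
Csf1 (chr3:107760420-107760719, minus strand): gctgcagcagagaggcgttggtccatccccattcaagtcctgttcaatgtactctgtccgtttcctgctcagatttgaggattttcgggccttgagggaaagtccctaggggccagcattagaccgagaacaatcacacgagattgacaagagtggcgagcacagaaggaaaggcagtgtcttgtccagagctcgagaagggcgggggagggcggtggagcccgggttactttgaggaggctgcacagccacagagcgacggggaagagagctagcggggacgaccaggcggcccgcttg
Csf2ra (chr19:61228369-61228668, minus strand): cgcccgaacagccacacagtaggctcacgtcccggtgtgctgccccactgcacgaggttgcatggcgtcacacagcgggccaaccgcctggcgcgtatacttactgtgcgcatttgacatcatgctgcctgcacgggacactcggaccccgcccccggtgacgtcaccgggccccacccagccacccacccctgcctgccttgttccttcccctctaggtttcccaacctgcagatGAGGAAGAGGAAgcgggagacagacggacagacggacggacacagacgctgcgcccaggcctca
Csf2rb2 (chr15:78305672-78305971, minus strand): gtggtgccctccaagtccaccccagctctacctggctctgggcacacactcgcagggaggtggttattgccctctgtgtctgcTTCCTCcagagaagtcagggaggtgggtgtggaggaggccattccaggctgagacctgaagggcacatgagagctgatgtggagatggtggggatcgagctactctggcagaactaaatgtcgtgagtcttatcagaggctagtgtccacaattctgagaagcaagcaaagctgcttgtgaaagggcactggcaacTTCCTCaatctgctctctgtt
Csf3r (chr4:126024409-126024708, plus strand): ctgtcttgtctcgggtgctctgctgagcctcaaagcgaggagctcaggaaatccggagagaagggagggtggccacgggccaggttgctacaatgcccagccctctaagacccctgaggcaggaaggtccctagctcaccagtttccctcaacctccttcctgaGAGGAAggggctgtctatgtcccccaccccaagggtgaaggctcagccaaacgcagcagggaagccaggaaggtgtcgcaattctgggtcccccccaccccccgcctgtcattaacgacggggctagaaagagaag
Counted from the start of the gene, GAGGAA began at -86 in Csf3r and at -14 and -8 in Csf2ra, and its complement at -167 and 30 in Csf2rb2. It did not occur in the window of Csf1, which says only that these letters are not in it. On either strand, GAGGAA was found in 28.3% of 32851 promoters of the same length. TGANTCA, the AP-1 letters, occurred in none of the 4 windows and in 7.81% of all promoters. TTCNNNGAA, the STAT letters, occurred in Csf2rb2 at -15 and in 8.30% of all promoters, and it shared no base with the capitals.

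Library totals ran from 19701722 to 30138257 counts. Levels are given as CPM, counts scaled to library size with edgeR's TMM factors, and 3 counts, the limit that a count of 0 allows, came to between 0.0976 and 0.140 CPM by counting error alone. Markers of spinal cord cells were present, with means over all mice of 13360 CPM for Mbp of oligodendrocytes, 5575 CPM for Gfap of astrocytes and 1585 CPM for Snap25 of neurons. The level of the cord is not given in the sources used here. The mean log2(CPM + 1) of 9 caudal Hox genes ran from 3.78 to 4.56 in the 8 WT mice of 155 days and from 1.62 to 3.59 in the 8 G93A mice of that time, with no overlap. The comparisons of genotypes at 155 days are therefore also given with this Hox score in the model. Since no G93A mouse shares a score with a WT mouse there, such a fit cannot hold the level of the cord equal between genotypes.

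In untreated mice of 155 days, 5 of the 6 genes were higher in G93A than in WT mice (edgeR's quasi-likelihood test, adjusted p under 0.05), against 21.3% of the 18675 genes tested that were higher and 39.5% that differed in either direction. Csf1, Csf1r, Csf2ra, Csf2rb and Csf3r rose, and Il34 did not pass. The median log2 fold change of the 6 genes was 1.72, beside 0.00015 over all genes tested. In the same 5 genes, every G93A mouse lay above every WT mouse, a separation in that direction found in 15.6% of all genes. In whole tissue, a change in the number of cells of a type and a change in RNA per cell cannot be told apart.

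Csf1 was at 38.1, 35.3, 38.8 and 36.0 CPM in the 4 untreated WT mice and at 99.5, 123, 109 and 88.1 CPM in the 4 untreated G93A mice of 155 days. The lowest G93A mouse was thus above the highest WT mouse by a wide margin, and the WT mice were close together. The log2 fold change was 1.54 (SE, standard error, 0.095, adjusted p = 4.18e-10). At 90 days the same gene was at 44.3, 49.6, 51.3 and 50.2 CPM in untreated WT mice and at 54.1, 40.9, 52.0 and 42.5 CPM in untreated G93A mice, ranges that overlapped. These are levels of RNA. The study's protein array had M-CSF, the protein of Csf1, higher in untreated G93A than in WT cord at 95 days. In untreated G93A mice the array had it lower at 155 than at 95 days.

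Il34, the other ligand, was at 8.75, 12, 10.4 and 10.7 CPM in untreated WT mice and at 8.94, 7.66, 10.9 and 8.04 CPM in untreated G93A mice of 155 days. The groups overlapped, and the log2 fold change was -0.19 (95% interval -0.44 to 0.06, adjusted p = 0.210). In OKN007 mice the difference between genotypes was 0.01 (adjusted p = 0.970). Across all 8 groups the mean of Il34 stayed between 8.51 and 10.5 CPM, and each group overlapped with its neighbour in that order. Its level rested on 154 to 326 counts in a mouse.

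Set on the same scale per kilobase of exon, the ligands were closest in WT mice of 155 days. There, Csf1 was at 7.02 ± 0.31 and Il34 at 5.34 ± 0.69 CPM per kb (SD, n = 4), and in untreated G93A mice Csf1 was at 19.8 ± 2.8 and Il34 at 4.53 ± 0.74 CPM per kb. The ratio of Csf1 to Il34 was 1.34 ± 0.22 in untreated WT mice, with 1.62 as its highest value, and 4.46 ± 1.01 in untreated G93A mice, with 3.70 as its lowest. In OKN007 mice of 155 days the ratio was 1.49 ± 0.06 in WT and 4.58 ± 0.48 in G93A mice (SD, n = 4). At 90 days the 4 group means of the ratio lay between 1.91 and 2.39, and their ranges overlapped.

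**Figure D1:**
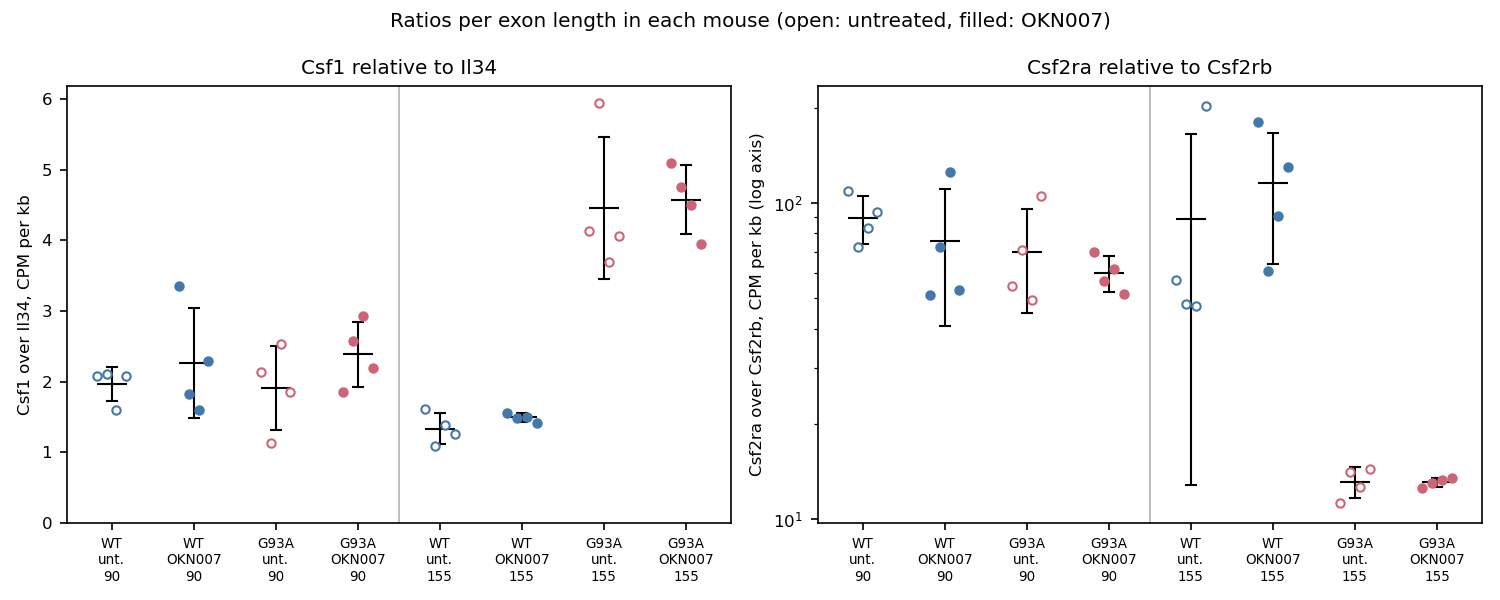
Ratios of levels per exon length in each mouse by group, genotype and treatment above time in days (open points untreated, filled OKN007, line and bar the mean and SD of 4 mice). On the left, with a linear axis from 0, Csf1 over Il34 is at 3.70 or above in all G93A mice of 155 days and at 3.35 or below in all other mice; on the right, with a log axis, Csf2ra over Csf2rb is between 11.3 and 14.4 in G93A mice of 155 days and at 47.3 or above in all other mice.

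Csf1r, the receptor of both ligands, was at 47.3, 52.3, 48.3 and 44.1 CPM in untreated WT mice of 155 days and at 145, 206, 201 and 139 CPM in untreated G93A mice. The G93A mice fell into a higher and a lower pair, and even the lower pair was far above the WT mice. The log2 fold change was 1.89 (SE 0.11, adjusted p = 2.35e-10). Per length, Csf1r was the highest of the 6 genes in these G93A mice, at 29.9 ± 6.2 CPM per kb against 8.31 ± 0.58 in WT mice. Its ratio to Csf1 per length was 1.5 ± 0.16 in untreated G93A and 1.19 ± 0.11 in untreated WT mice, and these ranges overlapped, with 1.331 as the lowest G93A and 1.353 as the highest WT value. In OKN007 mice of 155 days the ratio was 1.393 ± 0.083 in G93A and 1.065 ± 0.047 in WT mice (SD, n = 4). There the ranges did not overlap, at 1.273 to 1.457 against 1.008 to 1.11. Of the 50-base windows of Csf1r's transcripts, 14.3% also occur in Hmgxb3, which lies on the opposite strand and shares 873 exon bases with it. The strand setting of the counting is not given in the sources used here.

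Csf2ra was at 17.2, 17.8, 19.6 and 23.5 CPM in untreated WT mice and at 33.1, 61.4, 49.9 and 38.5 CPM in untreated G93A mice of 155 days. The groups did not overlap, and the G93A mice spread over a wide range. The log2 fold change of 1.27 (SE 0.15, adjusted p = 2.50e-06) was the smallest of the 5 genes that rose.

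Csf2rb, the common beta chain, was at 0.761, 0.937, 1.05 and 0.294 CPM in untreated WT mice of 155 days, from 9 to 27 counts. It was at 7.44, 11, 10.04 and 6.77 CPM in untreated G93A mice, from 199 to 268 counts. The groups were far apart, with a log2 fold change of 3.60 (SE 0.28, adjusted p = 7.92e-09), the largest of the 6 genes. The means stood in a ratio of 11.6.

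The beta chain rose more than the alpha chain, and the levels of the pair were closer in G93A mice of 155 days. Per length, Csf2ra exceeded Csf2rb by a ratio of 88.8 ± 76.0 in untreated WT mice of 155 days and of 13.1 ± 1.5 in untreated G93A mice (SD, n = 4). The WT ratios ranged from 47.3 to 203 on few counts of Csf2rb, and the G93A ratios from 11.3 to 14.4. With OKN007 the ratio was 115 ± 51 in WT and 13.1 ± 0.4 in G93A mice. Of the 50-base windows of Csf2rb's transcripts, 12.3% also occur in Csf2rb2, so that reads of the pair could be split or dropped. Csf2rb2 itself was at 0.386 ± 0.142 CPM in untreated WT and 5.45 ± 1.57 CPM in untreated G93A mice of 155 days, a log2 fold change of 3.86 (adjusted p = 6.30e-09).

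Csf3r was at 6.16, 6.43, 7.0 and 5.39 CPM in untreated WT mice of 155 days and at 33.7, 60.0, 51.4 and 33.1 CPM in untreated G93A mice. The groups were far apart, and the G93A mice that were high in Csf1r were again the higher ones. The log2 fold change was 2.88 (SE 0.17, adjusted p = 2.22e-10). Per length, Csf3r was below Csf2ra in both groups, at 1.73 ± 0.18 against 6.79 ± 0.997 CPM per kb in WT mice and at 12.3 ± 3.7 against 15.9 ± 4.4 CPM per kb in G93A mice. Neutrophils are the best known cells with Csf3r. The summed level of 11 such genes, Ly6g, Mpo, Elane and Cxcr2 among them, was between 1.54 and 1.81 CPM in untreated G93A and between 0.380 and 3.5 CPM in untreated WT mice of 155 days. Of the 11 genes, 2 passed the filter on low counts and 0 were called (edgeR), Ngp at a log2 fold change of -0.60 (adjusted p = 0.588) and S100a9 at -0.37 (adjusted p = 0.735). Shared 50-base windows made up 10.7% of Csf3r's transcripts.

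**Figure D2:**
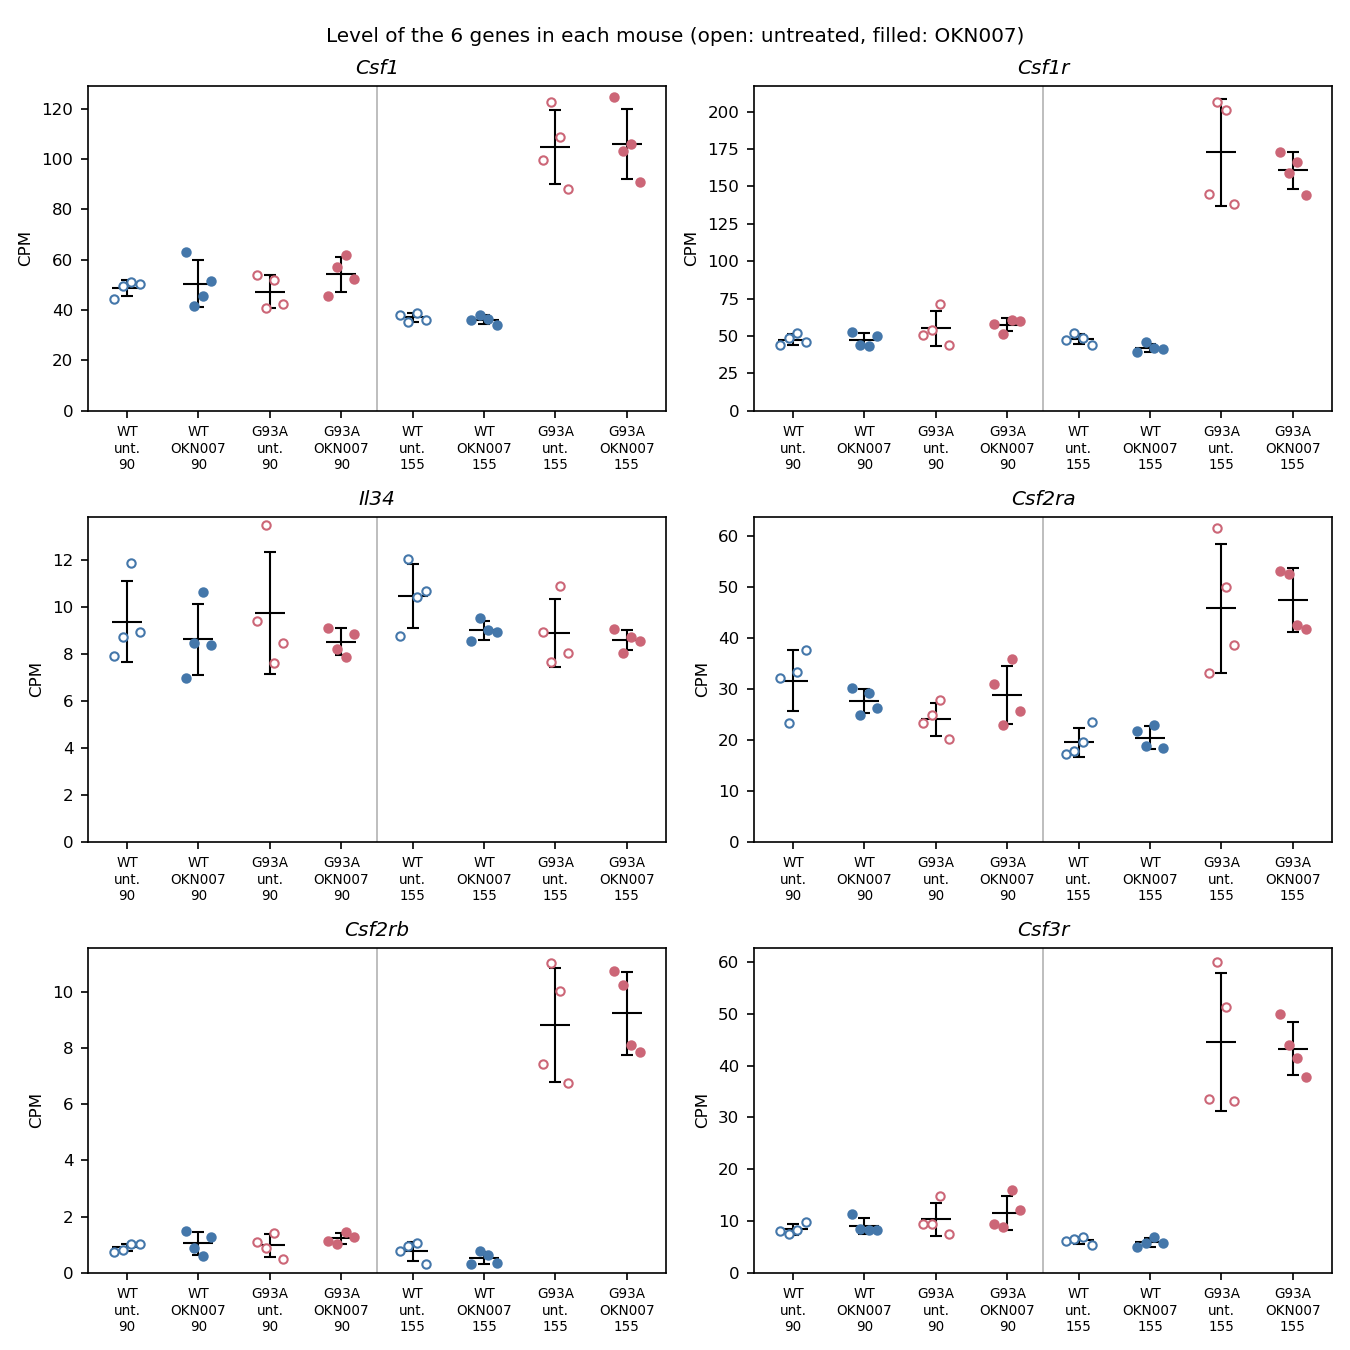
Level in CPM (linear axes from 0) of each of the 6 genes in each mouse, by genotype, treatment and time in days (open points untreated, filled OKN007, line and bar the mean and SD of 4 mice). In 5 panels the 8 G93A mice of 155 days stand above the WT mice of that time, as for Csf3r with 33.1 to 60.0 against 4.92 to 7.0 CPM, and Il34 shows overlapping groups throughout.

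The same comparison in OKN007 mice used other animals for both genotypes. Again 5 of the 6 genes were higher in G93A mice, against 23.3% of the genes tested (41.5% in either direction), and their groups did not overlap, against 20.2% of the genes in that direction. Csf1 was at 35.9, 38.2, 36.5 and 34.1 CPM in WT and at 124, 103, 106 and 90.7 CPM in G93A mice. Csf1r was at 39.6, 45.7, 41.7 and 41.4 CPM in WT and at 173, 159, 166 and 145 CPM in G93A mice. The 4 G93A mice were closer together in Csf1r than the untreated G93A mice. Csf2rb was at 0.308, 0.777, 0.637 and 0.360 CPM in WT and at 10.7, 10.2, 8.11 and 7.85 CPM in G93A mice. The log2 fold changes were 1.63 for Csf1, 2.01 for Csf1r, 1.29 for Csf2ra, 4.21 for Csf2rb and 2.96 for Csf3r, with adjusted p-values from 9.28e-11 to 1.63e-06.

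With the Hox score in the model, the same 5 genes were called in untreated mice of 155 days. Csf1 was at a log2 fold change of 1.39 (adjusted p = 4.86e-08), Csf1r at 1.84 (adjusted p = 2.64e-08), Csf2ra at 1.24 (adjusted p = 0.00018), Csf2rb at 3.42 (adjusted p = 3.37e-07) and Csf3r at 2.73 (adjusted p = 1.61e-08). Il34 was at -0.10 (adjusted p = 0.696). In OKN007 mice the same 5 genes were called with the score, at 1.48, 1.96, 1.26, 4.04 and 2.82 in that order. With the genotypes separate in the score, these fits cannot tell the level of the cord from genotype.

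OKN007 changed no member of the axis past the threshold, at either time or in either genotype (edgeR, 0 of 6 genes at an adjusted or an unadjusted p under 0.05 in each of the 4 comparisons, and 0 of 6 by DESeq2). Over all genes, 0% were called in each of them, with 755 genes in G93A and 549 in WT mice of 155 days with an unadjusted p under 0.05, and 1050 and 769 genes in those of 90 days. DESeq2 called 2 genes in WT mice of 155 days and 0 in the others. In G93A mice of 155 days the log2 difference between OKN007 and untreated mice was 0.03 for Csf1 (95% interval -0.17 to 0.22), -0.09 for Csf1r (-0.32 to 0.13) and -0.04 for Il34 (-0.29 to 0.21). It was 0.07 for Csf2ra (-0.24 to 0.37), 0.08 for Csf2rb (-0.38 to 0.54) and -0.03 for Csf3r (-0.34 to 0.29). The groups overlapped in all 6 genes, where 3.13% of all genes had separate groups. In WT mice of 155 days the estimates ran from -0.53 for Csf2rb (-1.28 to 0.22) to 0.04 for Csf2ra (-0.28 to 0.37). The interaction of genotype with OKN007 passed for 0 of the 6 genes at both times by edgeR and DESeq2, also at an unadjusted p under 0.05, where 0% of all genes were called by edgeR at each time and 2.81% at 90 and 2.34% at 155 days had an unadjusted p under 0.05. Its estimates at 155 days ran from 0.02 for Csf2ra to 0.61 for Csf2rb (95% interval -0.27 to 1.496).

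**Figure D3:**
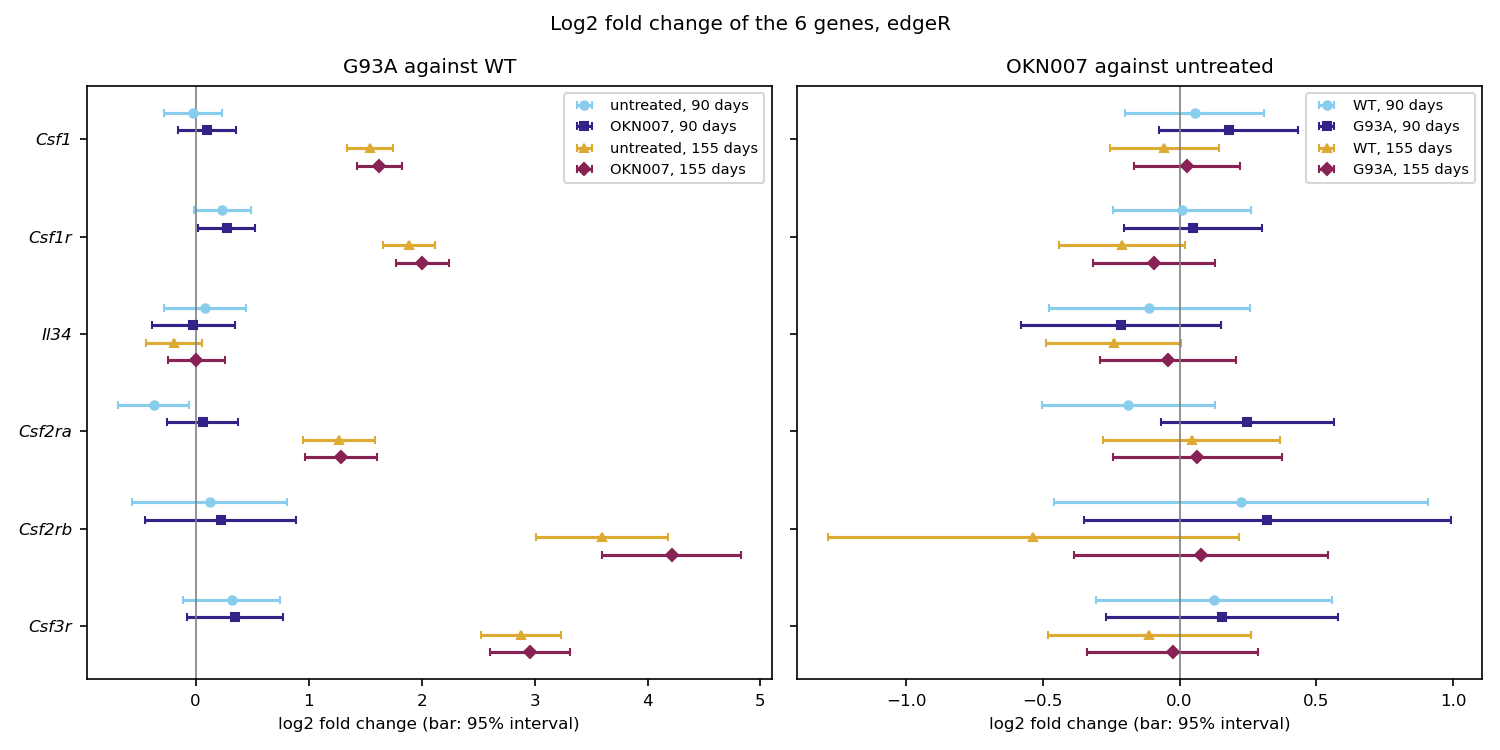
Log2 fold change of each gene (points) with its 95% interval (bars) for G93A against WT on the left and OKN007 against untreated on the right, at both times. On the left, 5 genes are far above 0 at 155 days, up to 4.21 for Csf2rb in OKN007 mice, and on the right every interval includes 0.

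At 90 days, 0 of the 6 genes differed between G93A and WT mice in either treatment, and 0% of the 18899 genes tested were called (edgeR; 1126 genes untreated and 747 with OKN007 at an unadjusted p under 0.05; DESeq2 called 16 and 3 genes, none of the 6). At an unadjusted p under 0.05, Csf2ra was lower in untreated G93A mice, at -0.37 (adjusted p = 0.822), and Csf1r was higher in OKN007 G93A mice, at 0.28 (adjusted p = 0.9996). Averaged over both treatments, 8 G93A against 8 WT mice, 5 genes were called (0.0265%) and none was of the 6. The log2 difference was then 0.26 for Csf1r (95% interval 0.08 to 0.43, adjusted p = 0.529) and 0.33 for Csf3r (0.03 to 0.64, adjusted p = 0.678). Csf1r was at 50.9, 54.2, 71.2 and 43.7 CPM in untreated and at 58.2, 51.1, 61.0 and 60.1 CPM in OKN007 G93A mice of 90 days. The WT mice of that time ran from 43.4 to 52.6 CPM, so that the G93A mice lay partly above them and partly among them. Without the mice whose Alb, a liver gene, was over 10 CPM, a check added after the data were seen, the Csf1r estimate was 0.12 (adjusted p = 0.9998).

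The G93A change was larger at 155 than at 90 days in 5 of the 6 genes, by a test of the difference itself over all 32 mice, against 21.2% of 19829 genes called in either direction in untreated mice and 23.0% in OKN007 mice. In untreated mice the difference of the log2 fold changes was 1.55 for Csf1, 1.64 for Csf1r, 1.62 for Csf2ra, 3.47 for Csf2rb and 2.55 for Csf3r, with adjusted p-values from 1.53e-08 to 2.32e-06. In OKN007 mice it was 1.49, 1.70, 1.19, 3.96 and 2.58, with adjusted p-values from 5.23e-09 to 0.000174. Il34 was at -0.29 (adjusted p = 0.366) and at -0.0039 with OKN007 (adjusted p = 0.994). These contrasts use the same mice of 155 days as the comparisons above and do not count as separate evidence.

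From 90 to 155 days, Csf1 and Csf2ra went opposite ways in the 2 genotypes. In untreated WT mice, Csf1 fell by 0.39 on the log2 scale (SE 0.11, adjusted p = 0.0111), from the 44.3 to 51.3 CPM of 90 days to 35.3 to 38.8 CPM, with no overlap. Csf2ra fell by 0.68 (SE 0.16, adjusted p = 0.00256), from 32.1, 23.3, 33.2 and 37.6 CPM to 17.2, 17.8, 19.6 and 23.5 CPM, where the lowest mouse of 90 days lay just under the highest of 155 days. These 2 of 6 genes compare with 9.61% of all genes lower and 24.9% called in either direction. Csf3r was at -0.41 (adjusted p = 0.127), although its WT groups did not overlap, as in 8.11% of genes in that direction. Csf1r was at 0.03 (95% interval -0.21 to 0.26).

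In untreated G93A mice, Csf1 rose from 90 to 155 days by 1.16, Csf1r by 1.67, Csf2ra by 0.95, Csf2rb by 3.21 and Csf3r by 2.13 on the log2 scale, with adjusted p-values from 2.53e-12 to 1.80e-05. That is 5 of 6 genes called, against 33.7% of all genes in either direction, and their ranges did not overlap, against 15.5% of genes in that direction. In untreated WT mice, 6 of 6 oligodendrocyte markers were lower at 155 days, with a median log2 fold change of -0.53, and 5 of 8 neuronal markers were higher. In untreated G93A mice, where Csf1 and Csf2ra rose, 5 of 6 oligodendrocyte markers were lower too, with a median of -0.49. Their part in the lower Csf1 and Csf2ra of WT mice was not tested. Without the mice over 10 CPM of Alb, Csf2ra was at -0.64 (adjusted p = 0.0525) and Csf1 at -0.48 (adjusted p = 0.0296).

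The order of the 8 groups followed the same pattern in 5 of the 6 genes, with both G93A groups of 155 days at the top and overlapping each other. In Csf1, Csf1r, Csf2rb and Csf3r they were separated from the next group, G93A OKN007 mice of 90 days. In Csf2ra the next group was untreated WT mice of 90 days, whose highest mouse, at 37.6 CPM, overlapped with the lowest untreated G93A mouse of 155 days, at 33.1 CPM. Below that, neighbouring groups overlapped, except for Csf1 and Csf3r, where the 2 WT groups of 155 days formed a separate lowest level. In Il34 no 2 neighbours were separate.

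Microglial markers moved with Csf1r. All 9 markers, among them Aif1, Itgam, Cx3cr1, P2ry12, Tmem119, Fcrls, Gpr34 and Sall1, were higher in untreated G93A mice of 155 days, with a median log2 fold change of 2.08. Cx3cr1, the fractalkine receptor, was at 2.08 (adjusted p = 2.16e-08), while Fcrls, an Fc receptor-like gene, was at 3.86 (adjusted p = 2.38e-12) and Aif1, which encodes IBA1, at 2.70 (adjusted p = 4.17e-09). The summed level of the 9 markers was between 1101 and 1819 CPM in untreated G93A and between 288 and 354 CPM in untreated WT mice. The pair of G93A mice that was higher in Csf1r was also higher in this sum, at 1693 and 1819 CPM against 1194 and 1101 CPM.

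Csf1r was also set against these markers within each mouse, as log2(CPM + 1) of Csf1r minus the mean over the 9 markers. The difference was 1.28 ± 0.04 in untreated G93A and 1.20 ± 0.09 in untreated WT mice of 155 days (SD, n = 4), and the groups overlapped (exact two-sided permutation test over 70 splits, p = 0.200, adjusted p = 0.400 over 2 tests). In OKN007 mice it was 1.17 ± 0.08 in G93A and 1.16 ± 0.08 in WT mice (exact permutation test, p = 0.971). Against Aif1 and Itgam alone, an alternative, the direction turned in untreated mice. Csf1r minus these 2 markers was 1.83 ± 0.07 in untreated G93A and 2.30 ± 0.07 in untreated WT mice, a difference of -0.47, lower in 4 of 4 G93A mice (exact permutation test, adjusted p = 0.0286, the smallest that 4 against 4 mice can give). In OKN007 mice this difference was -0.50, from 1.67 ± 0.13 and 2.17 ± 0.14 (exact permutation test, adjusted p = 0.0286). Both values follow from the changes of the same genes in the same mice and are not separate evidence. The log2 fold changes of the 9 markers themselves ranged from 0.39 for P2ry12 to 3.86 for Fcrls.

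**Figure D4:**
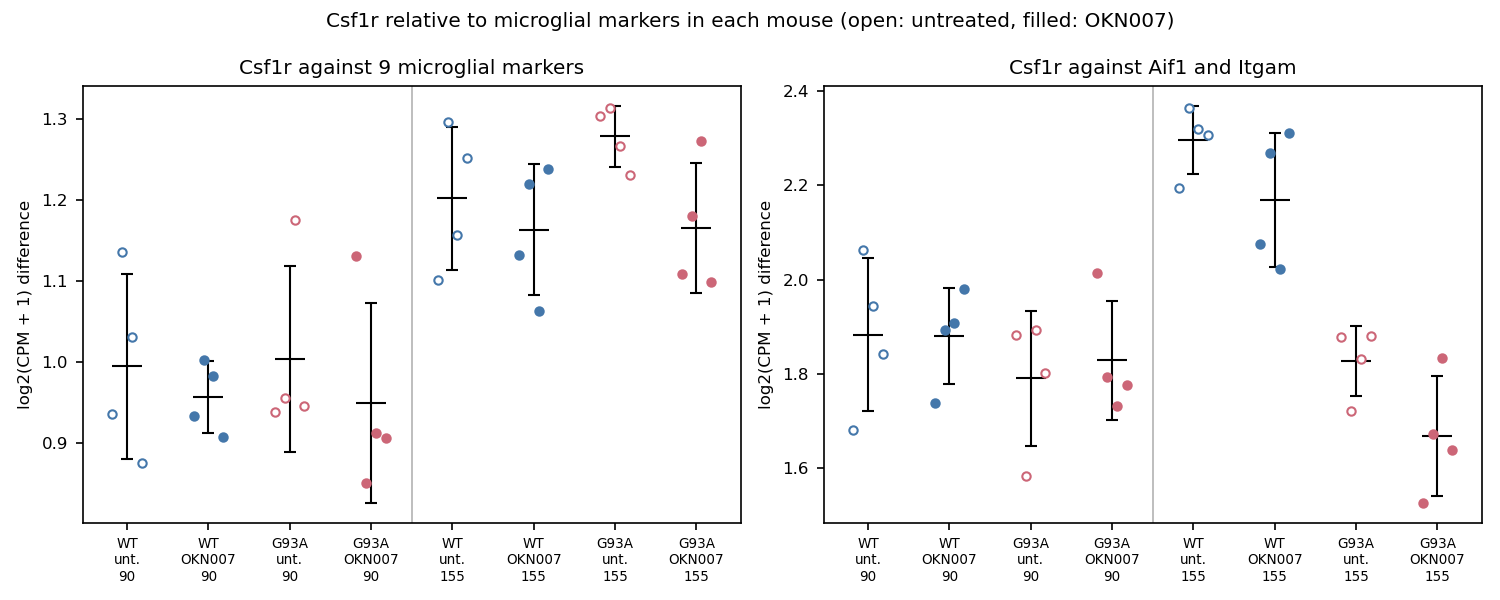
Csf1r minus the mean of 9 microglial markers (left) and minus the mean of Aif1 and Itgam (right), both as differences of log2(CPM + 1), in each mouse by genotype, treatment and time in days (open points untreated, filled OKN007, line and bar the mean and SD of 4 mice). On the left the genotypes overlap at 155 days, and on the right G93A mice, with means of 1.83 and 1.67, lie below WT mice, with means of 2.30 and 2.17.

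Across the 32 mice, the gene most like Csf1r in log2 CPM was Ctss, the lysosomal protease cathepsin S (Pearson's r of 0.995 over all mice and 0.896 with group means removed), and Fcgr2b, Mpeg1 and Cd68 were among the next. Those most like Csf3r were Slc11a1, Ptpn6, Laptm5, AU020206 and Itgam, the first at r of 0.990 (0.837 with group means removed). Those most like Csf2rb were Klhl6, Ptpn6, Irf8, Cyth4 and Apbb1ip, the first at 0.984 (0.858). Csf1 was closest to Galnt6 (0.983, and 0.857 with group means removed), Cchcr1, Mvp, Ggta1 and AU020206, and Csf2ra to Fxyd5 (0.947 and 0.769), Mical1, Pou2f2, Ptbp1 and P4ha3. Il34 had no gene as close: the first was Necab2 at 0.745 (0.760 with group means removed), then Aldoa, Gmpr, Ciapin1 and Nxph3. These mice share groups and libraries, so the values describe likeness only.

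Among the 6 genes and with group means removed, Csf1r and Csf3r were the closest pair, with r of 0.811 over 32 mice, and the other pairs without Il34 lay between 0.256 (Csf2ra and Csf2rb) and 0.718 (Csf1r and Csf2rb). The pairs with Il34 lay between -0.294 and 0.030.

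Other ligands and chains of these receptors were given by a list of 9 genes, of which 8 were in the table and 4 passed the filter in mice of 155 days. All 4 were higher in untreated G93A mice. Besides Csf2rb2, these were Il3ra, the alpha chain of the IL-3 receptor, at a log2 fold change of 2.28 (adjusted p = 2.96e-06), Sdc1, a proteoglycan that binds IL-34, at 1.35 (adjusted p = 3.77e-06), and Ptprz1, a phosphatase that is another receptor of IL-34, at 0.31 (adjusted p = 0.0076). The ligands Csf2 and Csf3 were at 0 to 2 and 0 to 3 counts in a mouse and were not detectable above the limit of 3 counts. Il5 and Il5ra did not pass the filter, with means of 0.0854 and 0.0968 CPM over all mice.

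Of 27 genes of signalling close to CSF1R, 19 were higher and 2 lower in untreated G93A mice of 155 days, with a median log2 fold change of 0.55. Over all genes tested in that comparison, 21.3% were higher and 39.5% were called in either direction, the shares to set beside every list count of these mice. The largest changes that passed were those of Tyrobp, the DAP12 adaptor, at 3.91 (adjusted p = 7.33e-11) and Ptpn6, the phosphatase SHP-1, at 3.04 (adjusted p = 5.10e-10). Of the most abundant, the kinase gene Fyn was at 0.25 (adjusted p = 0.00237) and Akt1 at -0.16 (adjusted p = 0.124). Of 11 Jak-Stat genes used by the receptors of GM-CSF and G-CSF, 5 were higher and 1 lower, against 21.3% of all genes higher and 39.5% called in either direction. Socs3, a feedback inhibitor induced by STAT3, was at 3.96 (adjusted p = 4.57e-09), Jak3 at 1.19 (adjusted p = 2.23e-07) and Stat3 at 0.92 (adjusted p = 5.42e-08), while Jak1 was lower at -0.35 (adjusted p = 0.00374). Many other receptors use the same proteins. All 10 proliferation genes were higher, with Mki67 at 3.54 (adjusted p = 1.74e-09), Top2a at 3.32 (adjusted p = 1.13e-09) and Pcna at 0.52 (adjusted p = 7.87e-06).

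Markers of other blood-derived and border cells were also read in untreated mice of 155 days. Of 6 border macrophage genes, 5 were tested and Pf4 was higher, at 1.39 (adjusted p = 0.0100) from a mean of 0.412 CPM over all mice, while Mrc1 was at 0.52 (adjusted p = 0.0748) and F13a1 at 0.22 (adjusted p = 0.458). Of 6 monocyte and dendritic cell genes, 2 were tested, Flt3 lower at -0.59 (adjusted p = 0.00368) and Ccr2 at 1.52 (adjusted p = 0.0519). Without Flt3, the summed level of that list was between 0.412 and 0.905 CPM in untreated G93A and between 0.262 and 0.724 CPM in untreated WT mice of 155 days. Of 6 T cell genes, 3 were tested and 2 were higher, Cd8a at 2.61 (adjusted p = 0.00298) and Cd3g at 2.36 (adjusted p = 0.000247), and Trac was at 0.46 (adjusted p = 0.0807). The summed level of the T cell list was between 3.64 and 4.77 CPM in untreated G93A and between 1.90 and 3.23 CPM in untreated WT mice.

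Astrocyte genes were higher in 7 of 8 cases, with Gfap at 2.4 (adjusted p = 1.41e-11), Sox9 at 1.47 (adjusted p = 3.33e-07) and Slc1a2 at 0.28 (adjusted p = 0.00427). Neuronal genes were lower in 8 of 8 cases with a median of -0.61, and motor neuron genes in 5 of 6 with a median of -0.65. Oligodendrocyte genes were higher in 1 of 6 cases and endothelial genes, liver and blood genes in 0 of 6 and 0 of 7 (edgeR), while 4 of 9 caudal Hox genes were lower. The part of these cells in the change of the 6 genes was not tested.

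**Figure D5:**
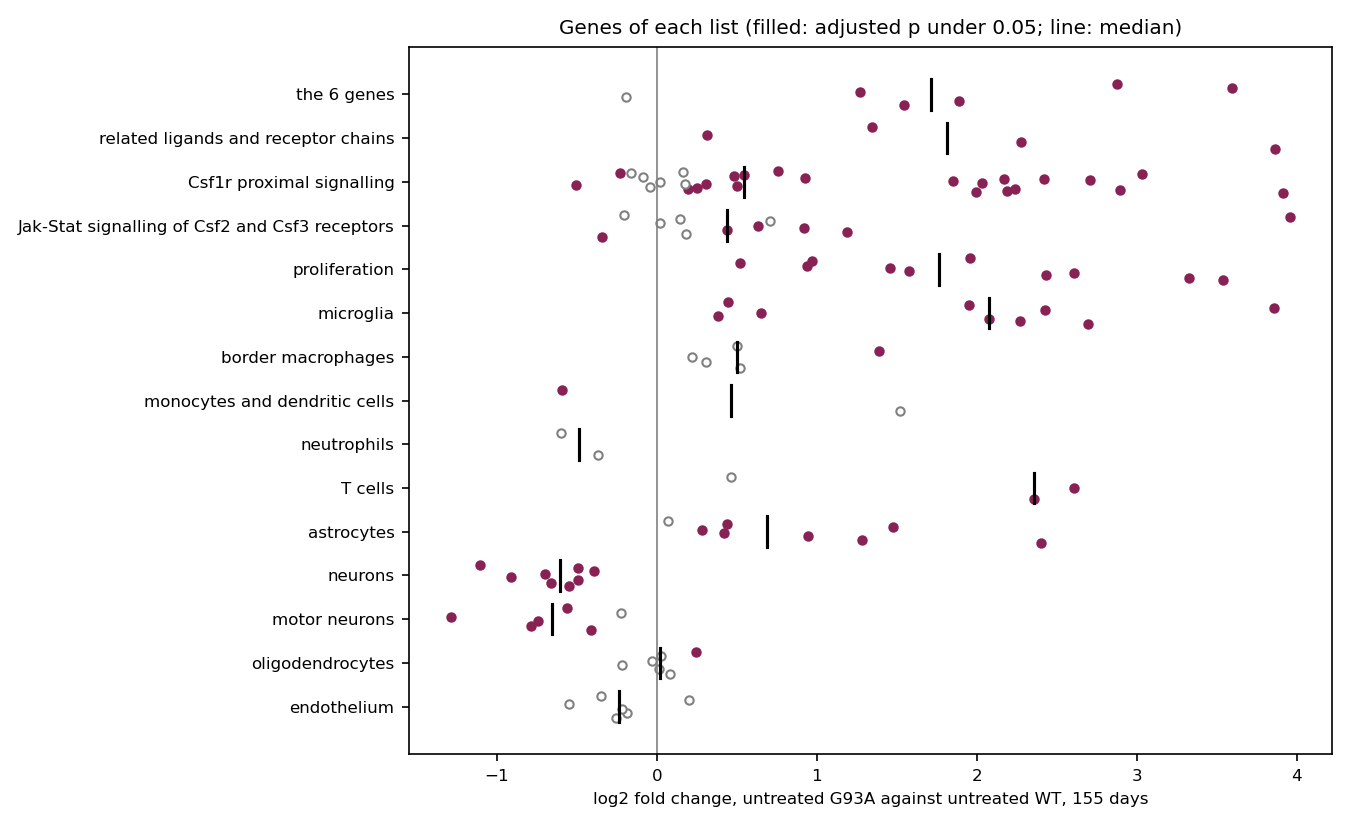
Log2 fold change of every tested gene of each list in untreated G93A against untreated WT mice of 155 days (filled points pass an adjusted p under 0.05, the black line is the list's median). The median of the 6 genes is 1.72, beside 1.77 for proliferation, 1.81 for related chains and 2.08 for microglial genes, and Il34 is the open point at -0.19; neuronal and motor neuron lists lie below 0.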

How the data were processed

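Spinal cord RNA of 32 mice was sequenced by the authors from TruSeq Stranded mRNA libraries on an Illumina NextSeq, and raw counts per gene were deposited without normalization. The study's methods name Trimmomatic, STAR, HTSeq and GENCODE M10 on GRCm38, whereas the submitters' processing notes name STAR, featureCounts and the builds hg38 and GRCm39 (mm39); the table holds 1306 gene IDs later than those of GENCODE M21, so the annotation behind the counts is uncertain, and the only positions given are those of RefSeq promoters. Symbols came from GENCODE M21 (41203 of 42524 genes, 96.9%), and exon lengths and 50-base windows from its transcripts.

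Counts were analysed with edgeR 4.0.16 in R 4.3.3 (TMM, filterByExpr, glmQLFit, glmQLFTest, two-sided, Benjamini-Hochberg over all genes), with the 16 mice of a time as 4 groups, and all 32 mice for contrasts between times. Standard errors came from the F statistic and intervals from its degrees of freedom. The procedure was also run on simulated counts, only for untreated G93A against untreated WT mice of 155 days, and the outcome is not given here. The 6 genes and all lists were chosen with earlier results of these data known. Named list genes are the 2 most abundant and the 2 with the largest called change in untreated mice of 155 days; likeness genes are the 5 of highest Pearson's r over 32 mice. A gene that these rules also name is not reported here. The microglial markers that end the range for Csf1r, and the neutrophil markers listed beside their sum, were named after their values were seen.

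The alternatives were DESeq2 1.42.0, RLE factors, a single fit of all 32 mice, a fit of the compared groups alone, no filter, a minimum of 10 counts per mouse, the caudal Hox score as a covariate, a block for the sample number, a pseudocount of 0.1, Aif1 and Itgam only, and leaving out each mouse. Leaving out the 8 mice with over 10 CPM of Alb was added after seeing the data. No 2 libraries of a group were alike within sampling noise (chi-square per gene of at least 3.80). The labels give no litters or days, so p-values measure the spread between these samples.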

Additional observations from a re-analysis of the deposited data

Results flagged for a closer look

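In 10 cases the G93A change differed between 90 and 155 days by the interaction test of edgeR over 32 mice. In untreated mice the difference of the log2 fold changes was 1.553 for Csf1, 1.6437 for Csf1r, 1.6245 for Csf2ra, 3.4658 for Csf2rb and 2.5454 for Csf3r, and in OKN007 mice it was 1.4925 for Csf1, 1.7002 for Csf1r, 1.1941 for Csf2ra, 3.9554 for Csf2rb and 2.5796 for Csf3r.

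Of 56 groups of 4 mice examined for a value far from the others, 2 held one, where chance gives about 2.8. Csf3r was at 11.4 CPM in the OKN007 WT mouse with the number 5 at 90 days, and the next mouse of its group was at 8.40 CPM. Csf1r minus the microglial markers was 1.18 in the untreated G93A mouse with the number 11 at 90 days, and the next was 0.955.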

How the results depend on the processing

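The number of the 6 genes called was the same in every fit without 1 mouse and in every alternative (5 at 155 days and between times, 2 from 90 to 155 days in untreated WT mice, 0 in the OKN007 comparisons, the interactions with OKN007 and at 90 days), with 2 exceptions. Without the 8 mice over 10 CPM of Alb, 1 gene was called from 90 to 155 days in untreated WT mice in place of 2, since Csf2ra was then at -0.64 (adjusted p = 0.0525) with fewer mice. With at least 10 counts in every mouse, Csf2rb was not tested at 155 days or between times, and 4 genes were called there in place of 5. Sample numbers are shared between times only, by different animals, and 2 of 16 same-numbered pairs deviated together with r over 0.1 (range -0.219 to 0.135), so the numbers do not pair the mice. With a replicate block, 5, 5, 2 and 5 genes were called in the 4 contrasts between times, the same numbers as without it.

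Csf1r relative to microglia markers, 155 days, OKN007 and untreated, changed direction. In OKN007 mice the difference between genotypes was 0.0020, and it was -0.05266 with a pseudocount of 0.1 (exact permutation test, adjusted p = 0.514) and between -0.0336 and 0.0270 without 1 mouse; in untreated mice it was 0.0765, and between 0.0431 and 0.108 without 1 mouse. With Aif1 and Itgam only, it was -0.467 and -0.500.

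Over all genes, the counts at 90 days depended on the filter and tool. Without a filter, 39 genes were called in untreated and 24 in OKN007 mice between genotypes, 110 over both treatments, 8 and 14 for OKN007 in G93A and WT mice and 3 for the interaction; at 155 days these OKN007 counts were 17, 10 and 8. DESeq2 called 16, 3 and 66 genes between genotypes at 90 days, where the reported counts are 0, 0 and 5, and 2 for OKN007 in WT mice and 2 for the interaction at 155 days. With all 32 mice in one fit, 1 and 21 genes were called between genotypes at 90 days in untreated mice and over both treatments. Over both treatments at 90 days, between 3 and 54 genes were called without 1 mouse, the latter without untreated G93A mouse 12, while 2 were called with at least 10 counts and 0 without the mice over 10 CPM of Alb. With the compared groups alone, 3 genes were called between genotypes in OKN007 mice of 90 days. With the Hox score, 6745 genes were called between genotypes over both treatments at 155 days in place of 10211. From 90 to 155 days in untreated WT mice, 3115 genes were called without WT mouse 4 of 90 days and 1066 without the mice over 10 CPM of Alb, in place of 4933; without the latter, 2404 genes were called for the genotype change between times in OKN007 mice in place of 4557. At 8 to 27 counts in WT mice of 155 days, Csf2rb's fold change is the least precise of the 6.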
